A study of Rattus norvegicus with 6 samples.

Results

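The genes described here encode the parts of the oxidative phosphorylation machinery that are written in nuclear DNA. They were chosen by gene symbol alone, whatever their level: the numbered Ndufa, Ndufb, Ndufc, Ndufs and Ndufv genes and Ndufab1, Sdha to Sdhd, the Uqcr genes and Cyc1, Cycs, the genes starting with Cox4 to Cox8, and the Atp5 genes. Of the 17833 genes listed, 88 met this rule. The libraries came from 3 Sprague-Dawley (SD) wild type rats with bilateral pulmonary vein banding (BPVB), a surgical constriction made at postnatal day 1, and from 3 sham rats, which had the same chest operation at postnatal day 1 without the constriction. Pulmonary vein (PV) tissue of the right upper lobe was taken from both groups at postnatal day 21, and its RNA was sequenced. The comparison of BPVB with sham asks how the vein's transcripts differ after constriction. Per the study's methods the 3 rats of each group were picked at random among operated rats not used for histology or immunofluorescence, and no batch is named.

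Oxidative phosphorylation takes place at the inner mitochondrial membrane. Complex I (NADH dehydrogenase) and complex II (succinate dehydrogenase) pass electrons to ubiquinone, complex III passes them on to the small carrier cytochrome c, and complex IV (cytochrome c oxidase) hands them to oxygen, while protons pumped on the way drive complex V, the ATP synthase. Heart muscle relies on this route for most of its ATP, and in rodents a sleeve of atrial cardiomyocytes surrounds the PVs. Complexes I, III, IV and V also hold subunits written in mitochondrial DNA, which were not analysed here.

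Levels are given as FPKM, the fragments of a gene scaled to the length of its transcript and to the total fragments of the library. They allow for length and depth, but not for a shift in which genes take up the fragments of a library. The libraries held 26078189 to 29725808 fragments in BPVB and 23439506 to 23821184 in sham. The fewest fragments behind any value of the 87 oxidative phosphorylation genes tested was 60, for Cox6b2 in a sham library. The labelled tissue was checked against marker genes of the cell types a PV sample can hold. All 15 cardiomyocyte markers were present, with Myl7, the atrial myosin light chain, at 5217, 5493 and 5515 FPKM in BPVB and 8093, 8084 and 8217 FPKM in sham.

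The great majority of the oxidative phosphorylation genes were lower in the banded veins. Each gene was compared by limma on log2(FPKM + 0.5), and a gene was called when its p, adjusted by Benjamini-Hochberg over all 15150 tested genes, was under 0.05. Of the 87 genes that passed the filter on low levels, 80 were lower in BPVB, 2 were higher and 5 were not called. Over all tested genes, 14.3% were called lower and 17.2% were called higher. The median log2 fold change of the 87 genes was -0.43, a level 25.7% lower in BPVB, while the median over all tested genes was 0.02. In bulk tissue, fewer cells of a type and less RNA per cell cannot be told apart.

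The size of the difference varied between genes. The quartiles of the log2 fold changes were -0.55 and -0.33, and 55 of the 87 lay between -0.6 and -0.3. By limma, none of the 87 met the study's thresholds for a differentially expressed gene (DEG), which add an absolute log2 fold change above 1. Over all tested genes, 3.27% met them by limma. The study applied its thresholds with DESeq2, which was not run here. Cox6b2 met them with voom on recovered fragments (log2 fold change 1.06), with TPM and with a pseudocount of 0.1. In 80 of the 87 genes, the 80 called lower, every BPVB library lay below every sham library. This order was found for 20.5% of all tested genes, and it is not a test apart from the calls. The reverse order held for 2 of the 87, the 2 called higher, and for 25.2% of all tested genes. Together the 88 genes took 2.63%, 2.72% and 2.71% of the fragments of the BPVB libraries and 3.55%, 3.59% and 3.62% of those of the sham libraries.

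**Figure D1:**
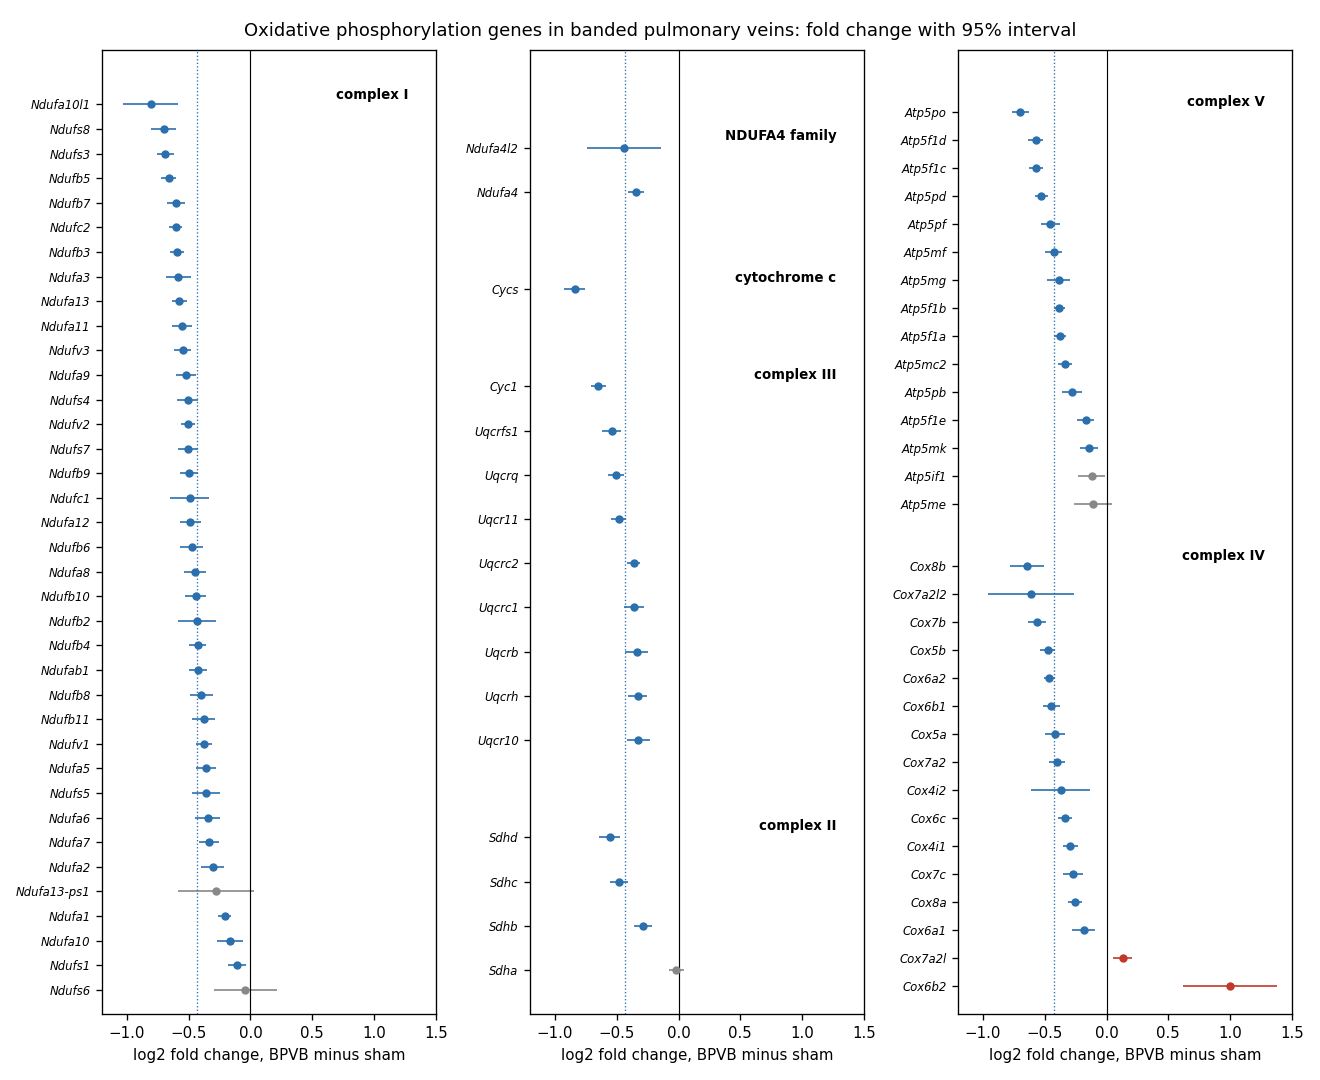
Log2 fold change of 84 of the 87 tested genes (x axis, BPVB minus sham on the log2(FPKM + 0.5) scale, 3 libraries per group), by complex. Points are limma estimates, bars are 95% intervals, blue marks genes called lower, red genes called higher and gray genes not called, and the dotted line is the median of -0.43. Nearly all points lie left of 0, with Sdha and Ndufs6 near 0 and Cox7a2l and Cox6b2 to the right of it.

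Summed over each complex, the level per library separated the groups in the same way for every complex. The summed level of the 88 genes was 33061, 34446 and 34628 FPKM in BPVB and 44746, 45437 and 45925 FPKM in sham, or 34045 ± 857 FPKM against 45369 ± 592 FPKM (SD, n = 3 each), without overlap. By complex, the sum was lower by 27.2% for complex I, 22.1% for complex II, 24.8% for complex III, 24.3% for complex IV and 23.6% for complex V. Cytochrome c, with Cycs as its only gene here, was lower by 44.2%. These sums are descriptions, and no test was made on them.

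**Figure D2:**
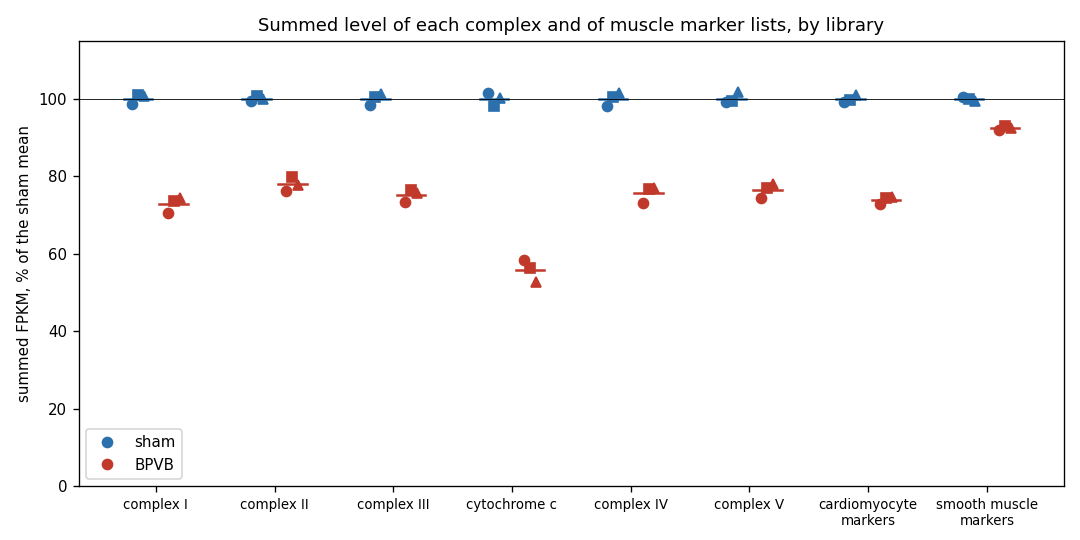
Summed FPKM of each complex and of 2 muscle marker lists in every library, as a percentage of the sham mean (y axis). Blue is sham and red BPVB, circles, squares and triangles are replicates 1, 2 and 3, and lines are group means. The BPVB libraries lie at 70.5% to 74.4% of the sham mean for complex I and at 76.1% to 79.8% for complex II, at 52.7% to 58.4% for cytochrome c, at 72.7% to 74.6% for the cardiomyocyte markers and at 91.8% to 93.1% for the smooth muscle markers.

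The stretches of DNA before the start sites of 5 genes are shown as examples of different responses: Cycs, with the lowest log2 fold change, Atp5po, a subunit of complex V, Cox6a2 and Cox8b, the muscle isoforms of complex IV, and Cox6b2, the gene with the largest rise. Each line gives the 250 bases upstream of the RefSeq start on the GRCr8 build, 5′ to 3′ on the strand of the gene, and capitals mark matches to 9 strings of letters, named in full further on.
Cycs, chr4:80984768-80985017, minus strand: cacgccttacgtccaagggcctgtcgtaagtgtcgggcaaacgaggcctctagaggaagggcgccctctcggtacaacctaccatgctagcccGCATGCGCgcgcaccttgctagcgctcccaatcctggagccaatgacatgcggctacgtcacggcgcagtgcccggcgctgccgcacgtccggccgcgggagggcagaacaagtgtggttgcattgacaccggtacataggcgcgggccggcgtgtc
Atp5po, chr11:44657484-44657733, minus strand: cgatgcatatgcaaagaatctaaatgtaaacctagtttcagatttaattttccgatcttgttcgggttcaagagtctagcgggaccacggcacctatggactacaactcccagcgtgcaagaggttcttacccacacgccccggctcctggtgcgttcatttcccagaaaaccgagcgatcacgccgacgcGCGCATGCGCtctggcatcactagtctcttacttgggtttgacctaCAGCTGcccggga
Cox6a2, chr1:192219717-192219966, minus strand: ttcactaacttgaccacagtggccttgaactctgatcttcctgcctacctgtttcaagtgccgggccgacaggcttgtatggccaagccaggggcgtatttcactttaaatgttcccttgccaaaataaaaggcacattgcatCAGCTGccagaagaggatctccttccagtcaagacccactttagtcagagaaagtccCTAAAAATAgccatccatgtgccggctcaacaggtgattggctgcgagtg
Cox8b, chr1:205408274-205408523, minus strand: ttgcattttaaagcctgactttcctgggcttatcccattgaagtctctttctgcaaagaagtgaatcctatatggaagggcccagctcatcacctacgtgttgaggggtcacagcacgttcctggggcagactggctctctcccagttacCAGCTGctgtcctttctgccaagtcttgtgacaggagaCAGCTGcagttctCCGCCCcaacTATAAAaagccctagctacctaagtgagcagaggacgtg
Cox6b2, chr1:78122621-78122870, plus strand: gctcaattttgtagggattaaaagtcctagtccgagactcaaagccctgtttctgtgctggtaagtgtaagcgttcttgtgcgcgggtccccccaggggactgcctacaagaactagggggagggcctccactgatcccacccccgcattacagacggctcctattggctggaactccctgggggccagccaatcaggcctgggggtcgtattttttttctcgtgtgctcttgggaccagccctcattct

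In complex I, which takes electrons from NADH, 36 of 38 genes were lower in BPVB, 2 were not called, and the median log2 fold change was -0.46. The 38 include Ndufa10l1 (lower) and Ndufa13-ps1 (not called), by symbol copies or relatives and not established subunits. Without such copies, 78 of 84 tested genes of the whole set were lower. All 7 nuclear-encoded subunits of the conserved core of complex I were lower, with a median of -0.50. So were 28 of the 29 accessory subunits, with a median of -0.45. The core subunit Ndufs8, which carries iron-sulfur clusters, was measured at 79.8, 87.0 and 80.0 FPKM in BPVB and 130, 133 and 139.5 FPKM in sham, and its log2 fold change was -0.70 (SE 0.04, adjusted p = 4.9e-06). Ndufs3, another core subunit, was measured at 121, 125 and 124 FPKM against 200, 193 and 202 FPKM, with a log2 fold change of -0.69. Neither gene's groups overlapped.

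The other nuclear-encoded core subunits of complex I had fold changes nearer 0. Ndufv1, which binds NADH and the flavin, was measured at 195, 201 and 205 FPKM in BPVB and 261, 263 and 256 FPKM in sham (log2 fold change -0.38). Ndufs7, which carries the iron-sulfur cluster next to ubiquinone, was measured at 125, 118 and 128 FPKM against 173, 180 and 173 FPKM (-0.50). The groups were separate for both. Ndufs1, the largest core subunit, was closest between the groups, at 151, 156 and 161 FPKM against 167, 168 and 170 FPKM, with a log2 fold change of -0.11 (SE 0.03, adjusted p = 0.029 by limma). Its call was lost when any 1 of 5 libraries was left out, with an adjusted p between 0.059 and 0.089, and also with TPM (adjusted p = 0.076) and under quantile normalization (adjusted p = 0.18).

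The lowest and the highest fold changes of complex I belonged to 2 of its more weakly expressed genes. Ndufa10l1, by its symbol a relative of Ndufa10, was measured at 7.13, 6.63 and 8.19 FPKM in BPVB and 13.1, 14.5 and 11.9 FPKM in sham, with a log2 fold change of -0.81 (SE 0.10, adjusted p = 0.00030). Ndufs6, a zinc-binding subunit, was measured at 26.6, 36.7 and 34.5 FPKM against 32.4, 31.1 and 36.6 FPKM, groups that overlapped, with a log2 fold change of -0.04 and a 95% interval from -0.30 to 0.21. Its sign turned without BPVB replicate 1 (0.10) and without sham replicate 3 (0.03). Ndufb5 had the largest fall of the 29 accessory subunits, at 281, 291 and 298 FPKM against 464, 456 and 457 FPKM. Ndufa10l1 and Ndufa10 may share reads, as may Ndufa13 and Ndufa13-ps1, and how the counting split them is not given in the sources used here.

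Complex II has 4 subunits, of which the membrane anchors and the iron-sulfur subunit were lower while the flavoprotein was not called. Sdhd, a membrane anchor, was measured at 201, 223 and 210 FPKM in BPVB and 310, 312 and 313 FPKM in sham, a log2 fold change of -0.56. Its partner Sdhc fell by 0.48 on the log2 scale. The iron-sulfur subunit Sdhb was measured at 213, 229 and 224 FPKM against 271, 267 and 276 FPKM (-0.29), again without overlap. Sdha, the catalytic flavoprotein, was measured at 192, 186 and 195 FPKM against 193, 196 and 191 FPKM. The Sdha libraries of the groups were interleaved, its log2 fold change was -0.02 with a 95% interval from -0.08 to 0.05, and its sign turned with TPM (0.014) and under quantile normalization (0.090), where Sdha was called higher (adjusted p = 0.047). A fall as large as that of Sdhb lies outside this interval.

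All 9 genes of complex III were lower, and the median of their log2 fold changes was -0.36. Cyc1, the cytochrome c1 that passes electrons to cytochrome c, stood lowest among them, at 172, 170 and 174 FPKM in BPVB and 264, 273 and 274 FPKM in sham. Its log2 fold change was -0.65 (SE 0.03, adjusted p = 4.8e-07). Uqcrfs1, the Rieske iron-sulfur protein, followed at 333, 331 and 322 FPKM against 489, 491 and 457 FPKM (-0.54). The structural core protein Uqcrc1 was measured at 196, 207 and 202 FPKM against 248, 261 and 267 FPKM (-0.36), and the small subunit Uqcr10, the least changed of the complex, at 360, 396 and 382 FPKM against 462, 464 and 500 FPKM (-0.32). No groups overlapped in any of these.

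Cycs, the somatic cytochrome c that carries electrons from complex III to complex IV, had the lowest log2 fold change of the 87 tested genes on the log2(FPKM + 0.5) scale, with the weakly expressed Ndufa10l1 next to it (-0.81) and slightly lower by the plain ratio of mean FPKM (0.555 against 0.558). It was measured at 324, 312 and 292 FPKM in BPVB and at 564, 545 and 556 FPKM in sham. The highest BPVB library thus lay far below the lowest sham library. The log2 fold change was -0.84 (SE 0.04, adjusted p = 7.1e-07), a level 44.2% lower, and it stayed between -0.88 and -0.80 under the 17 other settings tried.

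In complex IV, 14 of the 16 genes were lower and 2 were higher, the only complex with genes of both directions. The median log2 fold change was -0.39. Cox4i1, the main form of subunit 4, was measured at 1194, 1231 and 1185 FPKM in BPVB and 1439, 1468 and 1518 FPKM in sham. Its log2 fold change was -0.29, and ran from -0.32 to -0.15 over all settings tried. Cox5a was measured at 464, 502 and 480 FPKM against 666, 626 and 641 FPKM (-0.42). Both were separate between the groups. Cox4i2, a form of subunit 4 known from lung, was measured at 12.3, 11.1 and 9.71 FPKM against 15.2, 12.5 and 15.7 FPKM (-0.37), and its adjusted p of 0.027 rose to between 0.058 and 0.091 without BPVB replicate 2, BPVB replicate 3, sham replicate 1 or sham replicate 3. Ndufa4, long counted with complex I and now placed in complex IV, was kept apart with its relative Ndufa4l2. Ndufa4 was measured at 668, 709 and 710 FPKM against 863, 900 and 885 FPKM (-0.34). Ndufa4l2, known as a hypoxia-induced gene, was measured at 9.65, 9.74 and 10.9 FPKM against 17.3, 13.5 and 11.5 FPKM (-0.44, adjusted p = 0.031). The Ndufa4l2 groups did not overlap, but its call was lost without BPVB replicate 1, BPVB replicate 2, sham replicate 1 or sham replicate 2 (adjusted p from 0.061 to 0.083) and with no filter on low levels (adjusted p = 0.060).

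The muscle isoforms of complex IV were lower in BPVB relative to their partners that are found in most tissues, though the test of a ratio cannot reach 0.05 here. Cox8b, the muscle form of subunit 8, was measured at 771, 878 and 922 FPKM in BPVB and 1266, 1368 and 1382 FPKM in sham, while its partner Cox8a was measured at 375, 379 and 370 FPKM against 436, 456 and 452 FPKM. The ratio of Cox8b to Cox8a within a library, which no scaling between libraries can change, was 2.06, 2.32 and 2.49 in BPVB and 2.91, 3.00 and 3.05 in sham, without overlap. The muscle form Cox6a2 was measured at 1064, 1072 and 1047 FPKM in BPVB and 1444, 1472 and 1473 FPKM in sham, and Cox6a1 at 300, 332 and 311 FPKM against 352, 371 and 350 FPKM. Their ratio was 3.55, 3.23 and 3.36 in BPVB and 4.10, 3.97 and 4.21 in sham, again without overlap. In log2 units the ratio was lower by 0.39 for Cox8b over Cox8a and by 0.28 for Cox6a2 over Cox6a1 (exact permutation test, two-sided, p = 0.1 for each, the smallest p that 3 against 3 libraries allow). Adjusted over the 7 isoform pairs compared, this p was 0.14. The ratios of Cox4i2 to Cox4i1 and of Ndufa4l2 to Ndufa4 overlapped between the groups, with differences of -0.09 and -0.12 in log2 units. With 1 library left out, they ranged from -0.19 to -0.015 and from -0.26 to 0.058. Cox7a1, the muscle partner of Cox7a2, was not analysed here.

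The 2 genes called higher were also in complex IV. Cox6b2, known from testis as the partner of Cox6b1, was measured at 12.99, 12.04 and 13.69 FPKM in BPVB and at 4.61, 6.23 and 8.27 FPKM in sham, a log2 fold change of 1.00 (SE 0.17, adjusted p = 0.0020) that lay just under the fold threshold of the DEGs. Its level stayed far below that of Cox6b1, at 547, 583 and 588 FPKM in BPVB and 773, 785 and 784 FPKM in sham, so that Cox6b2 came to at most 0.024 of the Cox6b1 level in any library. The log2 ratio of Cox6b2 to Cox6b1 was higher by 1.51 in BPVB, without overlap. Cox7a2l, a factor that joins complexes III and IV into supercomplexes, was measured at 190, 199 and 186 FPKM in BPVB and 169, 177 and 179 FPKM in sham, groups that did not overlap. Its log2 fold change was 0.13 (SE 0.03, adjusted p = 0.020), and the call was lost under TMM scaling (adjusted p = 0.059), under median-of-ratios scaling (adjusted p = 0.057) and without BPVB replicate 2 or sham replicate 1.

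**Figure D3:**
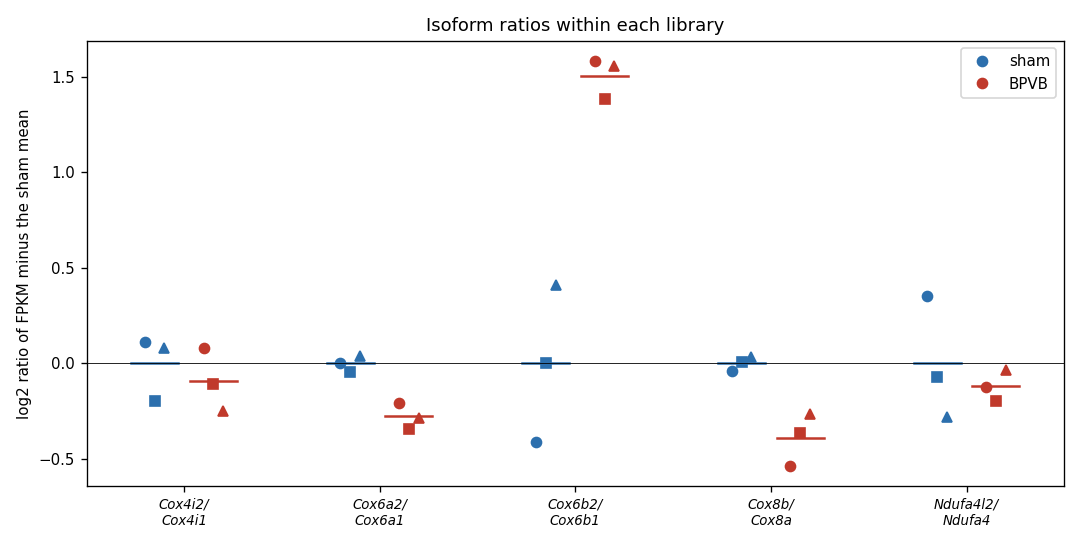
Log2 ratio of the FPKM of 5 of the 7 isoform pairs within each library, minus the sham mean of that pair (y axis). Blue is sham and red BPVB, circles, squares and triangles are replicates 1, 2 and 3, and lines are group means. The BPVB points lie below all sham points for Cox6a2/Cox6a1 and Cox8b/Cox8a and above them for Cox6b2/Cox6b1, while the groups overlap for Cox4i2/Cox4i1 and Ndufa4l2/Ndufa4.

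In complex V, 15 of the 17 tested genes were lower, and their median log2 fold change was -0.39. The catalytic head held the most abundant gene of the set, Atp5f1b, the beta subunit, at 1956, 1977 and 1958 FPKM in BPVB and 2548, 2534 and 2594 FPKM in sham (log2 fold change -0.38). Its alpha partner Atp5f1a, at 848, 843 and 832 FPKM against 1092, 1085 and 1102 FPKM, had the same log2 fold change of -0.38. All 5 head subunits were lower and separate between the groups, with a median of -0.38.

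The peripheral stalk, which holds the head still, was lower in all 4 genes with a median of -0.49. Atp5po, the subunit that joins the stalk to the head, was measured at 533, 569 and 549 FPKM in BPVB and 877, 884 and 922 FPKM in sham, separate groups with a log2 fold change of -0.70. Of the small membrane subunits, 3 of 4 were lower, and their median was -0.26. Atp5me, subunit e, which helps ATP synthases pair, was not called, at 728, 855 and 879 FPKM against 891, 835 and 925 FPKM (log2 fold change -0.11, 95% interval from -0.26 to 0.04). Atp5if1, the inhibitor of ATP hydrolysis, was not called either, at 199, 203 and 218 FPKM against 236, 211 and 228 FPKM (-0.12, interval from -0.23 to -0.01). The groups overlapped for both, but Atp5me was called lower with voom (adjusted p = 0.045) and Atp5if1 without BPVB replicate 3 (adjusted p = 0.045) or sham replicate 2 (adjusted p = 0.028). Over all settings tried, the log2 fold change ran from -0.16 to -0.03 for Atp5me and from -0.17 to -0.03 for Atp5if1. Atp5hl1 was under the filter on low levels, with 1, 2 and 1 fragments in BPVB and 0 in every sham library, and was not tested.

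What the genes shared beyond their function was short transcripts and high levels. The median transcript length was 707 bases, against 2984 bases over all tested genes, and 78 of the 87 had a mean of at least 100 FPKM. The median log2 fold change was 0.00 over the 1285 tested genes shorter than 1000 bases. Over the 733 tested genes with a mean of at least 100 FPKM it was -0.02. Both classes include oxidative phosphorylation genes, whose medians were -0.43 (n = 58) and -0.44 (n = 78). A part of length or level in the result was not tested. Across the 87 genes, Spearman's rho of the log2 fold change was 0.02 with mean level and -0.13 with length, a description over genes that share libraries. In RefSeq, 16 of the 88 overlap another protein-coding gene. All 16 were called lower, and in the whole set 80 of the 87 tested genes were. Without a stated strand setting, reads of such neighbors cannot be told apart.

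The windows around the start sites were searched for short strings of letters on both strands, over 250 bases before and 50 bases after the RefSeq start on GRCr8. A window was found for 74 of the 88 genes and for 13875 tested genes. Of 18 strings looked up, 9 are marked in the stretches printed above, and this choice, like that of the 5 genes, was made after the sequences and fold changes had been seen. The mark for NRF1, a regulator of nuclear genes for mitochondria, is GCATGCGC, found in 12.2% of the windows of the set and in 4.31% of those of all tested genes. It was shortened from a string of 10 letters, the same with GC before it (5.41% and 1.56%), after the longer string was seen to be missing from Cycs. With any base allowed in place of its T, the longer string was in 17.6% and 8.24%. The NRF1 marks sit 157 bases before the start of Cycs and, as overlapping matches of both strands, 59 and 57 bases before that of Atp5po.

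Strings of other regulators differed in the same direction in most cases. CCGGAAG, the core of ETS sites, was in 28.4% of the windows of the set and 15.1% of those of all tested genes, AAGATGGC, for YY1, in 20.3% and 4.60%, AAGGTCA, for the estrogen-related receptors, in 13.5% and 3.26%, and TGACGTCA, the cyclic AMP response element, in 5.41% and 2.81%. GGGCGG, for SP1, was less frequent in the set, at 40.5% against 56.3%, and the E-box CAGCTG was at 13.5% against 16.1%. Cox6a2 alone held CTAAAAATA, for the muscle regulator MEF2, 50 bases before its start, a string found in 0.303% of the windows of tested genes. Cox8b held TATAAA, the TATA box, 39 bases before its start, found in 9.46% and 8.00%, together with E-box and SP1 strings, and Cox6b2 held none of the 9.

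The remaining strings were AANATGGCG at 21.6% of the windows of the set and 5.13% of those of all tested genes, TCAAGGTCA at 2.70% and 0.339%, TGACG at 45.9% and 28.8%, CCAAT at 32.4% and 36.8%, TTTCCCGC at 4.05% and 1.85%, another MEF2 string of 10 letters at 0% and 0.137%, and the dinucleotide CG in all windows of the set and 98.8% of the others. Fold changes within the set were also set side by side by string. The 9 genes with the NRF1 string had a median log2 fold change of -0.36 and the 65 without it of -0.44, the 21 with the ETS string had -0.36 and the 53 without it -0.45, and the 15 with the YY1 string had -0.44 and the 59 without it -0.43. The medians with and without the string were -0.41 and -0.44 for the estrogen-related receptor string (n = 10 with it), -0.39 and -0.45 for SP1 (n = 30), -0.27 and -0.44 for the cyclic AMP response element (n = 4), -0.45 and -0.43 for the E-box (n = 10) and -0.34 and -0.44 for the TATA box (n = 7), and the MEF2 string was in 1 gene (-0.46, against -0.43 without it). These are descriptions of letters in a window and carry no test.

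The mitochondrial ribosome, the assembly factors and the import machinery had median fold changes between those of the oxidative phosphorylation genes and of all tested genes. Of 74 tested genes of the mitochondrial ribosome, 49 were lower and 1 was higher, with a median log2 fold change of -0.26. Their lowest was Mrps28, at 15.4, 14.4 and 16.2 FPKM in BPVB and 32.0, 25.1 and 25.7 FPKM in sham (-0.82), and the 1 that rose was Mrps18b (0.33). Of 49 assembly factors of the complexes, 23 were lower and 0 higher by limma (0 at an unadjusted p under 0.05, 0 by voom), with a median of -0.22, from -0.64 for the complex I factor Ndufaf2 to 0.22 for Taco1, which was not called. Of 25 import genes, 11 were lower and 1 was higher, with a median of -0.20, from -0.49 for Timm21 to 0.26 for the receptor Tomm70. The 20 tested genes of the V-ATPase, a proton pump outside mitochondria added after values had been seen, had 3 lower, 4 higher and a median of 0.02.

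The enzymes that feed the electron transport chain did not move as 1 group. Of 18 tricarboxylic acid (TCA) cycle and pyruvate dehydrogenase genes, 13 were lower and 1 was higher, and the median was -0.24 on the log2 scale. Idh2, the NADP-linked isocitrate dehydrogenase, was lowest at 285, 305 and 307 FPKM in BPVB and 456, 465 and 457 FPKM in sham (-0.62), while Cs, citrate synthase, was the 1 called higher, at 126, 122 and 127 FPKM against 114, 112 and 118 FPKM (0.13). Among 19 fatty acid oxidation genes the balance was the reverse, 10 higher and 2 lower, at a median of 0.16. Decr1, which handles unsaturated fatty acids, rose most, at 114, 122 and 119 FPKM against 83.6, 84.9 and 87.1 FPKM (0.47), and Etfb, a subunit of the electron-transferring flavoprotein, fell most (-0.44).

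Of 19 regulators of mitochondrial biogenesis, 2 were lower and 0 higher by limma (1 at an unadjusted p under 0.05, 0 by voom), with a median log2 fold change of -0.05. Over all tested genes 14.3% were called lower. The lowest of the 19 was Ppargc1a, the coactivator PGC-1 alpha, at 5.55, 5.49 and 5.31 FPKM in BPVB and 7.21, 6.89 and 7.67 FPKM in sham, without overlap (-0.38, adjusted p = 0.0049), and the other called gene was Ppara, a nuclear receptor for fatty acids (-0.32, adjusted p = 0.033). Polg2, of the mitochondrial DNA polymerase, had the highest value, 0.41, and was not called.

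**Figure D4:**
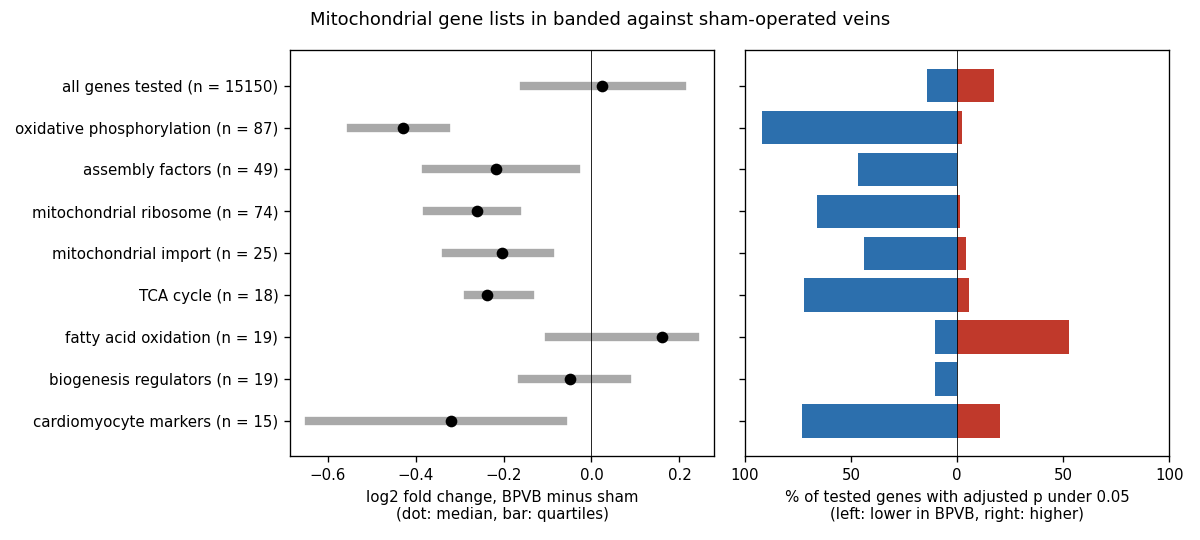
Left, median (dot) and quartiles (bar) of the log2 fold change, BPVB minus sham, of all tested genes, of the oxidative phosphorylation genes and of other lists (n = genes tested). Right, percentage of each list called lower (blue) or higher (red) at an adjusted p under 0.05. The oxidative phosphorylation genes have the lowest median (-0.43) and fatty acid oxidation the highest (0.16).

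Markers of several cell types moved between the groups together with these genes. Of the 15 cardiomyocyte markers, 11 were lower, 3 (Ryr2, Nppa and Pln) were higher, and the median log2 fold change was -0.32. Their summed level was 19633 to 20144 FPKM in BPVB and 26782 to 27280 FPKM in sham, 26.1% lower. The oxidative phosphorylation sum divided by this marker sum was 1.68, 1.72 and 1.72 in BPVB and 1.67, 1.69 and 1.68 in sham, groups that overlapped. Ckmt2, the mitochondrial creatine kinase of striated muscle and a member of that list, was measured at 324, 314 and 319 FPKM in BPVB and 819, 835 and 848 FPKM in sham (-1.39), a deeper fall than that of any oxidative phosphorylation gene. The part of the cardiomyocyte markers in the result was not tested.

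Other marker lists moved in either direction, and their part was not tested either. The 5 alveolar type 2 cell markers were all higher, with a summed level of 506 to 555 FPKM in BPVB and 56.9 to 58.3 FPKM in sham, as were the 5 macrophage markers, at 649 to 671 FPKM against 207 to 213 FPKM. Of the 5 fibroblast markers 3 were higher and 2 lower, with a sum of 3338 to 3370 FPKM against 2946 to 2968 FPKM. The smooth muscle markers (4 of 5 lower), the endothelial markers (3 of 5 lower) and the erythroid markers (1 of 4 lower) had medians of -0.13 each. Of the brown adipocyte markers, 3 of 4 were lower, with a summed level of 112 to 122 FPKM against 137 to 146 FPKM, and Ucp1, which defines the type, had a mean of 3.32 FPKM in BPVB and 5.58 FPKM in sham. That list shares Ppargc1a with the biogenesis regulators, and the skeletal muscle list shares Ckm with the cardiomyocyte markers. Of the 4 tested skeletal muscle markers 1 was lower and 1 higher, and of the 4 tested ciliated cell markers 1 was lower, with 4 of the 5 ciliated markers listed at a mean under 1 FPKM.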

How the data were processed

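PV RNA of 3 BPVB and 3 sham rats was analysed, with groups and replicate numbers taken from the sample titles. The table's columns, P and S with a number, were matched to the titles by initial and number, and the study's heatmap uses the same letters for the banded and sham groups. The series' design text abbreviates the operation as PAB, while the sample labels give PV banding. The authors deposited 1 FPKM value per gene and library. Per the labels' processing notes, HISAT2 2.0.5, StringTie 1.3.3b, featureCounts 1.5.0-p3 and DESeq2 1.20.0 were used, while the study's methods name fastp, HISAT and HTSeq-count. Genome build, annotation and strand setting are not given in the sources used here.

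Since a gene's FPKM in 2 libraries stand in a ratio of whole fragments, fragments per gene could be worked out, and came out whole for all 17833 genes (relative tolerance 1e-12). Library totals were between 23439506 and 29725808 fragments, and counting limits cover counting error only. DESeq2 was not run here. Genes with a mean of at least 0.1 FPKM (15150) were tested with limma 3.58.1 (lmFit, eBayes with trend) in R 4.3.3 on log2(FPKM + 0.5), two-sided, with Benjamini-Hochberg adjustment over all of them, so a fold change understates that of low genes. DEGs also had an absolute log2 fold change above 1. Isoform ratios used exact permutation tests over libraries. The recovery of fragments and the limma fit were tested on simulated data.

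The genes and lists were chosen with earlier results of these data known, and the parts of complexes I and V, the V-ATPase list and the strings searched were chosen after values had been seen. Genes named singly were catalytic or carrier subunits, isoform pairs, the lowest and highest fold change of each complex among genes with a mean of at least 1 FPKM, and genes under the filter, except genes not reported here. Ndufs3, Ndufs8, Ndufb5, Sdhc, Atp5po, Atp5if1 and Cox7a2l were added after their values had been seen. Of the lists, the genes with the lowest and highest fold change were named, with Mrps18b, Ppara, Myl7, Ckmt2, Ucp1 and the 3 raised cardiomyocyte markers added. Mitochondrial DNA genes and Cox7a1 were not analysed here, and 3 genes and 2 isoform pairs are counted but not reported singly. Alternatives were other scalings, pseudocounts, filters, a robust fit, voom on the recovered fragments, the replicate block and leaving out each library.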

Additional observations from a re-analysis of the deposited data

How the results depend on the processing

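Between 76 and 81 of the oxidative phosphorylation genes were lower in BPVB under all 17 other settings, and 76 of the 82 called genes kept their call and direction in every one of them, the exceptions being Cox4i2, Cox7a2l, Cox7a2l2, Ndufa10, Ndufa4l2 and Ndufs1. No called gene reversed. Genes called higher numbered 1 under TMM scaling and 1 under median-of-ratios scaling, both of which lost Cox7a2l, and 3 with no filter and 3 under quantile normalization. DEGs numbered 1 with TPM, 1 with a pseudocount of 0.1 and 1 with voom on the recovered fragments, in place of 0, since Cox6b2 then passed the fold threshold. The median log2 fold change of complex I was -0.49 under TMM scaling, -0.49 under median-of-ratios scaling, -0.43 with TPM and -0.40 under quantile normalization, which also gave -0.31 for complex II and -0.31 for complex III. Sdha turned to 0.014 with TPM and to 0.090 under quantile normalization (adjusted p = 0.047). For these shifts the cause was not tested. The median over all tested genes lay between -0.01 and 0.05 in every setting.

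Leaving out each library in turn gave 76 to 79 genes lower, 1 to 2 higher (1 without BPVB replicate 2 or sham replicate 1) and 0 to 1 DEGs, with medians of -0.48 to -0.44 for complex I and -0.44 to -0.38 for complex V. Sdha ranged from -0.031 to 0.00051, Ndufs6 from -0.13 to 0.096, and the log2 ratio of Ndufa4l2 to Ndufa4 from -0.26 to 0.058, the latter without sham replicate 1. With 3 against 3 libraries the exact permutation test of an isoform ratio cannot go below p = 0.1, so that p says nothing about stability.

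Same-numbered BPVB and sham libraries share only a number: their deviations from the group means correlated at 0.03, 0.01 and 0.02, and each correlated best with its own number, a hint from the data and not the design. The replicate block gave 80 genes lower, 2 higher and 0 DEGs, and it changed no call. Depth limits Atp5hl1, with at most 2 fragments. Cox6b2, with 60 fragments in 1 sham library, had the fewest of the tested genes, though it kept its call in every setting.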
